A study of Mus musculus with 23 samples.

Results

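Monocytes recovered 28 days after a poly(ethylene glycol) (PEG) hydrogel was placed under the skin of mice were compared with control monocytes. The comparison rests on the 3 libraries labelled day 28 monocytes and the 3 labelled control monocytes, 6 of the 23 libraries of the series. All were made from wild-type C57BL/6J mice. The day 28 monocytes came from animals carrying the implant, a crosslinked synthetic polymer gel that cells do not degrade readily. The controls are labelled as untreated, with subcutaneous tissue as their source, and the labels do not say whether they had sham surgery. Cells were freed by enzyme digestion with Liberase TM and sorted as positive for the fractalkine receptor Cx3cr1 and high for Ly6C. Libraries A, B and C of each group are biological replicates according to the study's design text. Age, sex and the number of animals pooled in a library are not stated in the sources used here.

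An implanted material that the body cannot clear draws in neutrophils and then monocytes, and the reaction ends in a fibrous capsule around it. Classical monocytes, which carry high Ly6C and the chemokine receptor Ccr2, leave the bone marrow, enter the tissue and can turn into macrophages there. Macrophages on the surface of a material may fuse into foreign body giant cells. Nonclassical monocytes, which carry little Ly6C and much Cx3cr1, patrol the vessel wall.

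The control libraries held 30402667 to 32994092 gene counts and the day 28 libraries 17693873 to 20786916. Levels are given as CPM, the counts per 1e+06 counts of the library, scaled by the trimmed mean of M values (TMM), and each set of 3 values follows the order A, B, C. CPM is not corrected for gene length, so levels are compared between samples and not between genes. A gene was called higher or lower when edgeR's quasi-likelihood test, fitted to all 16260 genes tested, gave a Benjamini-Hochberg adjusted p under 0.05. Changes are log2 fold changes of day 28 over control. The value after ± stands for their standard error, except where an SD is named. It was derived as the size of the change divided by the square root of the test's F statistic. By this rule 1905 genes (11.7%) were higher at day 28 and 1060 (6.52%) were lower, which together is 18.2% of the genes tested. The median log2 fold change of all tested genes was 0. Rank correlations between libraries over genes were 0.959 to 0.969 within the controls, 0.931 to 0.947 within day 28 and 0.866 to 0.895 between them. Gene length moved with the comparison. The median log2 fold change was 0.48 in the fifth of genes with the shortest exons (48 to 1729 bases) and -0.26 in the fifth with the longest (from 6797 bases), and the part of length in the results was not tested.

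Genes of the sort gate, Cx3cr1 and those of Ly6C, changed in part, as did the leukocyte markers Ccr2, Ptprc, Cd68 and Itgam described with them. Cx3cr1 itself, the receptor used for sorting, read 556, 437 and 512 CPM in the controls and 84.1, 189 and 97.8 CPM at day 28. It was lower in each day 28 library than in any control (log2 fold change -2.02 ± 0.37, adjusted p = 0.000565). Ly6c2, which encodes most of the Ly6C seen on monocytes, read 1229, 2406 and 1291 CPM in the controls and 2171, 836 and 991 CPM at day 28. These ranges overlapped, and the difference of -0.30 ± 0.61 did not pass the test (adjusted p = 0.785). Ly6c1, its neighbour and near copy, behaved likewise in the test at 0.25 ± 0.45 (adjusted p = 0.749), and reads may be split between the pair. Ccr2, the receptor for the monocyte attractant Ccl2, read 1644, 1644 and 1917 and 1019, 2114 and 2192 CPM, with a difference of 0.03 ± 0.39 (adjusted p = 0.979). The day 28 macrophages of the series, sorted as low for Ly6C, had 27.6 ± 30.5 CPM of Ly6c2 (SD, n = 3), under every day 28 monocyte library. Ptprc, the pan-leukocyte antigen CD45, fell from 1652, 1425 and 1805 to 515, 832 and 845 CPM (log2 fold change -1.16 ± 0.27, adjusted p = 0.00465). Cd68, a lysosomal membrane protein of phagocytes, rose from 769, 1224 and 680.0 to 2636, 1857 and 1393 CPM (1.14 ± 0.28, adjusted p = 0.00762). Itgam, the integrin chain CD11b, passed the test narrowly at 0.88 ± 0.29 (adjusted p = 0.0381) with overlapping ranges, and did not pass without control A or B or day 28 B or C (adjusted p 0.0832 to 0.191).

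Markers of other cell types differed between the groups and are given before the other results. The controls carried transcripts of neutrophil granules, which are made while neutrophils mature in the bone marrow. The 20 neutrophil markers summed to 3596 to 5001 CPM in the control libraries and 431 to 834 CPM at day 28. Of them 11 were lower and 3 higher at day 28. Ngp, neutrophilic granule protein, read 1152, 1394 and 779.8 CPM in the controls and 0.674, 0 and 0 CPM at day 28 (log2 fold change -12.32 ± 1.19, adjusted p = 2.63e-07). Ltf, lactoferrin of secondary granules, read 447, 343 and 348 against 0.618, 0.244 and 0 CPM (-10.38 ± 1.18, adjusted p = 2.24e-06). Ly6g, which defines mature mouse neutrophils at the cell surface, was low in the controls at 1.13, 1.49 and 0.379 CPM and lower at day 28 at 0.0562, 0.0488 and 0.0492 CPM. Il1f9, an interleukin 36 cytokine, was a neutrophil list member that rose, from 0.567, 0 and 0 to 11.1, 18.5 and 16.3 CPM (6.24 ± 0.96, adjusted p = 7.89e-05), and Stfa2l1 and Mmp9 were the others. Mmp8, the neutrophil collagenase, overlapped between groups and did not pass (adjusted p = 0.359).

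The 11 B and plasma cell markers summed to 649 to 805 CPM in the controls and 159.8 to 194 CPM at day 28, and 4 of the 10 tested were lower. Ebf1, a B cell factor that stromal and fat cells also express, was the 1 higher member. The lower count was 2 without control A, day 28 B or day 28 C. Jchain, which joins secreted IgM and IgA chains, read 115, 44.7 and 44.9 CPM in the controls and 0, 0.78 and 0.0492 CPM at day 28 (-7.89 ± 1.05, adjusted p = 2.52e-05). The 15 dendritic cell markers summed to 315 to 727 CPM and 92.4 to 139 CPM, with 5 lower and none higher. That count fell to 3 without control A, control C or day 28 A and to 2 without day 28 B. Cd209a, a lectin of monocyte-derived dendritic cells, read 445, 255 and 71.5 CPM in the controls and 34.2, 8.15 and 19 CPM at day 28 (-3.65 ± 0.78, adjusted p = 0.00219). Of the 18 myeloid progenitor markers tested, 5 were lower and 3 higher. The lower ones included Elane and Mpo, proteins of primary neutrophil granules, which are also counted in the neutrophil list. Fcnb, a ficolin of immature myeloid cells, was lower too, at 72.7, 58.3 and 59.4 CPM in the controls and 0.337, 6.54 and 5.16 CPM at day 28 (-3.98 ± 0.85, adjusted p = 0.00224).

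Fibroblast transcripts moved the other way. The 18 fibroblast markers summed to 7.5 to 13.1 CPM in the controls and 313 to 756 CPM at day 28, with 13 higher and none lower. Col3a1, the main chain of type III collagen, read 0.0436, 0.0531 and 0.071 CPM in the controls and 85.6, 213 and 145 CPM at day 28 (11.24 ± 1.61, adjusted p = 3.53e-05). Day 28 library B was the highest of its group for Col3a1, Col1a1 and Col1a2. Pdgfra, a surface receptor that defines many fibroblasts, had no counts in the controls and 1.12, 0.146 and 0 CPM at day 28, which did not pass (adjusted p = 0.145). Pdgfrb overlapped between the groups with a difference of 0.02 ± 1.09. In the day 14 monocytes the fibroblast sum was 695 to 1281 CPM and in the day 2 monocytes 24.1 to 171 CPM. In these pooled cells, fewer cells of a type and less RNA per cell cannot be told apart, and what part such markers play in the results below was not tested.

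The other lists were smaller or changed little. The T cell sum was 5.62 to 7.93 CPM in the controls and 81.5 to 119 CPM at day 28, and Il7r, the interleukin 7 receptor, which some macrophages and innate lymphoid cells also express, made up most of it at 66.8, 66.7 and 105 CPM and was the list's sole call. Cd3e, a defining chain of the T cell receptor complex, read 1.01, 0.537 and 0.344 CPM at day 28. The 7 skeletal muscle markers summed to 3.03 to 3.57 CPM in the controls and 4.44 to 60.7 CPM at day 28, where library C was the high one. Its 3 higher calls became 0 without that library. None of the NK cell, eosinophil, adipocyte or erythroid markers tested was called by edgeR with its low count filter or by limma voom. DESeq2 called 1 NK cell and 1 adipocyte marker higher, and edgeR on thinned counts 1 NK cell marker. With no low count filter edgeR called 1 NK cell and 2 adipocyte markers higher and 4 erythroid markers lower, as well as 5 T cell, 7 endothelial and 2 dendritic cell markers higher. At an unadjusted p under 0.05 edgeR with the filter had 1 NK cell, 2 adipocyte, 0 eosinophil and 0 erythroid markers. The endothelial list had 2 of 11 higher (Kdr and Egfl7), the mast cell and basophil list 1 of 6 (Hdc), and the keratinocyte list 2 of the 3 tested (Sfn and Krtdap, 0 without control C).

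**Figure D1:**
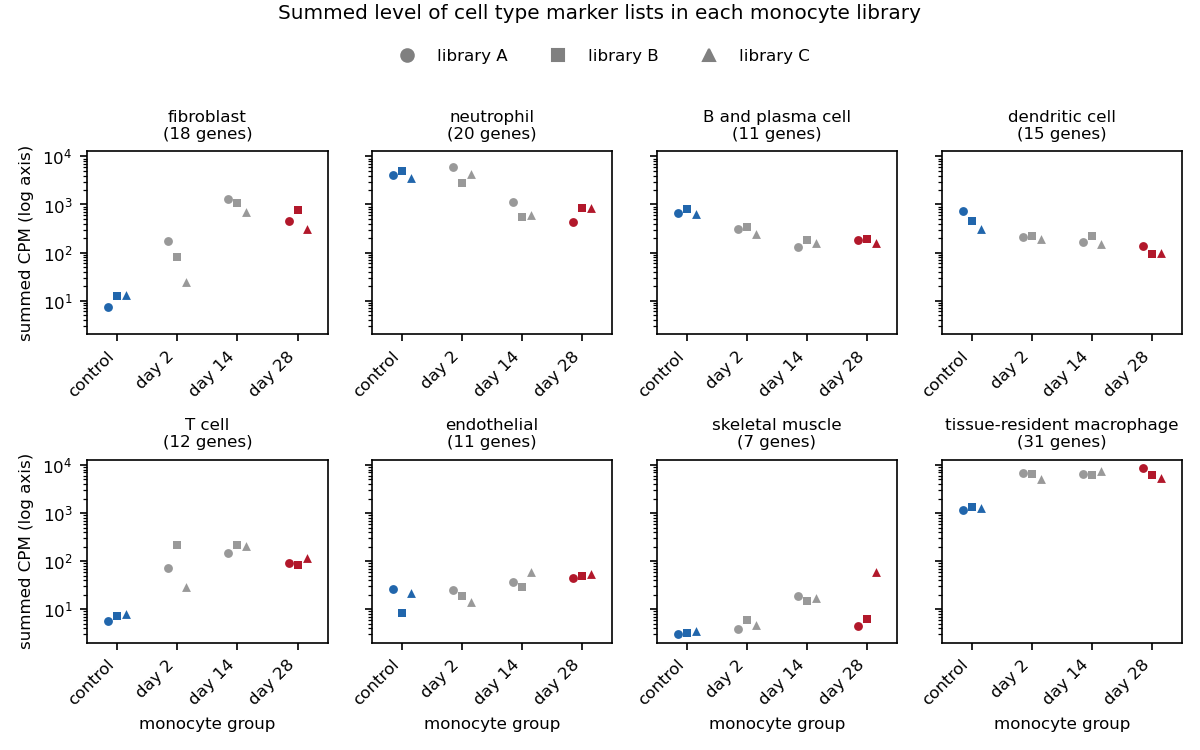
Summed CPM (log axis) of the markers of 8 cell types in each monocyte library; each point is 1 library, blue for controls, grey for days 2 and 14, red for day 28. Neutrophil, B and plasma cell and dendritic cell sums are higher in every control than in any day 28 library, fibroblast and resident macrophage sums lower, and day 28 library C stands apart for muscle.

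The largest rises were in genes that the controls lacked. Pdpn (podoplanin, chr4:143267431-143299564 on GRCm38), a membrane glycoprotein of lymphatic vessels, stromal cells and inflammatory macrophages, had no counts in any control and 42.5, 59.1 and 73.1 CPM at day 28. That is at least 2472-fold higher, taking 3 counts over the control group as the floor (adjusted p = 3.97e-09). Flrt3 (chr2:140650914-140671469), a membrane protein of cell adhesion and axon guidance, read 0, 0.0265 and 0 CPM in the controls, a single count, and 84.6, 129.6 and 206 CPM at day 28. Rhov, a small GTPase, likewise had 1 count in all controls and 85.7, 70 and 126 CPM at day 28 (adjusted p = 2.56e-06). Ppbp, the precursor of the neutrophil attractant Cxcl7, was at least 1490.4-fold higher at 16.4, 25.3 and 62.7 CPM (adjusted p = 3.4e-07), and Slc4a11, a membrane transporter of the bicarbonate family, was at least 1409-fold higher at 19.6, 34.9 and 44.5 CPM (adjusted p = 9.4e-08). Cdh1, the adhesion protein E-cadherin, which fusing macrophages also make, was at least 1199-fold higher and varied widely, with 1.52, 17.3 and 63.7 CPM. That no day 28 library overlapped the controls was part of the rule that chose these genes. Of all 16260 genes tested, 5662 had groups that did not overlap.

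The rest of the 12 largest rises included collagen and matrix genes. Col1a1 and Col1a2, the chains of type I collagen, read 12.2, 45 and 16.9 and 37.9, 80.7 and 26.8 CPM at day 28 against no counts and 1 count in the controls. Col1a1 was thereby at least 1059.9-fold higher (adjusted p = 6.36e-05). Dcn, the collagen-binding proteoglycan decorin, read 119.9, 161 and 26.9 CPM against 0, 0.0265 and 0.0473 CPM, and Efemp1, a fibulin of the matrix, 16.3, 29.4 and 3.69 CPM against none. These sit beside the fibroblast sums above, 3 of them (Col1a1, Col1a2 and Dcn) being members of that list. Pxdc1, a gene of little known function, was at least 696-fold higher at 21.8, 18.5 and 10.1 CPM. Cxcl14, a chemokine of skin and stroma, was at least 672-fold higher at 11, 31.2 and 5.16 CPM.

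The 12 largest falls held neutrophil and progenitor granule genes. Camp (chr9:109847379-109849617), the antimicrobial peptide cathelicidin, read 324, 413 and 219.7 CPM in the controls and 0.169, 0 and 0 CPM at day 28, where library A held 3 counts and the others none. Ngp and Ltf, given above, fell with it, as did Mpo, myeloperoxidase, from 32.9, 39.9 and 30.7 to 0.169, 0 and 0.246 CPM (-7.92 ± 1.12, adjusted p = 3.13e-05). Elane, neutrophil elastase, fell from 43.9, 55.6 and 29.8 to 0.0562, 0.0488 and 0.639 CPM (-7.39 ± 1.48, adjusted p = 0.00137). Itgb2l, an integrin chain like that of leukocytes, was at least 236-fold lower, with 18.5, 6.98 and 9.59 CPM in the controls and no counts at day 28. Falls outside the granule genes included S1pr5, a receptor for sphingosine 1-phosphate that helps patrolling monocytes leave the bone marrow, from 31.8, 51.5 and 41.9 to 0.0562, 0.39 and 0 CPM (-8.06 ± 1.48, adjusted p = 0.000703). Racgap1, which acts on small GTPases at cell division, fell from 83.2, 79.2 and 76.6 to 0.787, 3.66 and 2.26 CPM (-5.15 ± 0.78, adjusted p = 6.62e-05). Rab36, a membrane traffic GTPase, Sntb1, a syntrophin, and Dyrk3, a kinase, read 7.62 to 33.9 CPM in the controls and at most 0.829 CPM at day 28.

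**Figure D2:**
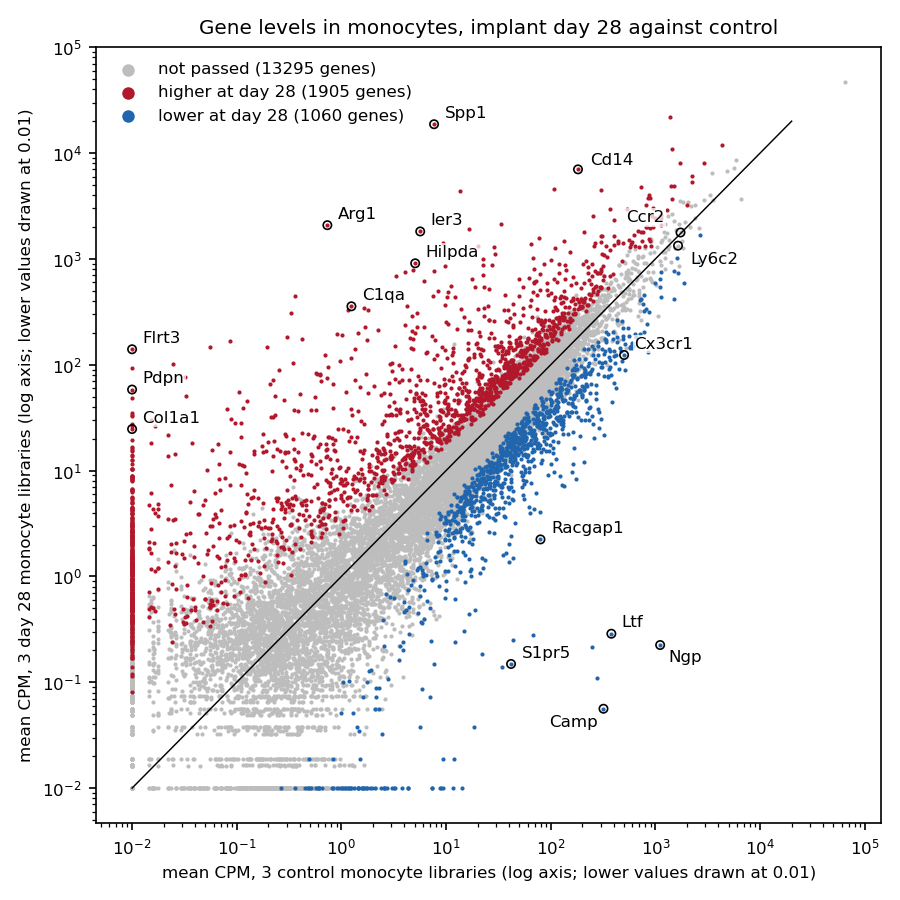
Mean CPM of each tested gene in the 3 control libraries (x, log axis) and the 3 day 28 libraries (y, log axis), with called genes in red (1905 higher) and blue (1060 lower) and equal levels on the line. Spp1, Arg1 and Cd14 lie far above the line, Ngp, Camp and Ltf far below it, and Ccr2 and Ly6c2 near it.

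The identity genes of monocytes changed in both directions. Of 30 genes of classical monocytes 6 were higher and 8 lower at day 28, with a median log2 fold change of -0.12; the lower count was 4 without control B and 5 without day 28 B. Cd14, the co-receptor for lipopolysaccharide, rose from 220.1, 164 and 162 to 5700.1, 7777 and 7549 CPM (5.27 ± 0.27, adjusted p = 3.42e-11). Thbs1, the matrix protein thrombospondin 1, rose from 10.6, 4.35 and 25.6 to 1606, 3159.8 and 8344 CPM (8.34 ± 0.88, adjusted p = 7.71e-07), with library C at the top of the day 28 group. Ly6a, the surface antigen Sca-1, rose from 10.8, 13.2 and 9.42 to 1070.5, 336 and 269 CPM (5.65 ± 0.80, adjusted p = 3.31e-05), and Ctsc, which activates granule proteases, rose by 1.68 ± 0.27 (adjusted p = 0.000114). Itga4, the integrin chain that binds Vcam1, fell from 291, 181 and 288 to 22.9, 30.8 and 28.3 CPM (-3.21 ± 0.36, adjusted p = 1.93e-06). Lyz2, lysozyme, and F13a1, a transglutaminase of clotting, were among the 16 that did not pass, at -0.49 ± 0.29 and -0.55 ± 0.48.

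Nonclassical monocyte genes were more often lower. Of the 25 tested 11 were lower and 6 higher. Ace, angiotensin-converting enzyme, fell from 164, 76 and 281 to 4.83, 14.2 and 6 CPM (-4.37 ± 0.70, adjusted p = 0.000122). Adgre4, an adhesion receptor of that subset, fell from 465, 369.8 and 422 to 62.1, 81.3 and 36.1 CPM (-2.81 ± 0.41, adjusted p = 4.83e-05). The transcription factor Pou2f2 fell from 67, 50.4 and 68.5 to 11, 10.4 and 7.43 CPM (-2.69 ± 0.34, adjusted p = 7.1e-06), and Eno3, an enolase, by -2.57 ± 0.38 (adjusted p = 4.47e-05). None of these 4, named for their small adjusted p, overlapped between the groups, and nor did 5662 of all 16260 genes tested. Among those that rose, Cd36, the scavenger receptor for oxidised lipid, went from 8.15, 20.9 and 12.8 to 174, 611 and 214 CPM (4.58 ± 0.55, adjusted p = 4.59e-06), and Cd300ld, an activating receptor of myeloid cells, rose by 1.57 ± 0.23 (adjusted p = 3.78e-05). Csf1r, the receptor for the macrophage growth factor, did not pass at -0.09 ± 0.39, and nor did Nr4a1, a nuclear receptor that this subset needs, at 0.32 ± 0.41.

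Macrophage genes were higher. Of 31 genes of tissue-resident macrophages 18 were higher and none lower at day 28 (median log2 fold change 2.73). The 3 chains of complement C1q, which marks debris and dying cells for uptake, rose together. C1qa read 1.37, 1.27 and 1.09 CPM in the controls and 528, 320.3 and 221 CPM at day 28 (8.15 ± 0.42, adjusted p = 3.42e-11). C1qb read 8.04, 10.6 and 9.56 against 2283, 1244 and 706 CPM (7.23 ± 0.43, adjusted p = 2.96e-10) and C1qc 2.94, 3.77 and 3.34 against 1148, 596 and 345 CPM (7.70 ± 0.45, adjusted p = 2.51e-10). Within day 28 all 3 were highest in library A and lowest in library C. Dab2, an endocytic adaptor, rose from 0.676, 0.159 and 0.237 to 255, 572 and 516 CPM (10.24 ± 0.61, adjusted p = 3.29e-10), and Stab1, a scavenger receptor, from 1.57, 1.17 and 0.189 to 116, 79.5 and 128 CPM (6.78 ± 0.54, adjusted p = 1.5e-08). Members that define resident cells of several tissues did not pass, among them Adgre1 (F4/80) at 0.57 ± 0.24, Lyve1 at 3.71 ± 1.41, Siglec1 at -0.18 ± 0.38 and Cd163, the haptoglobin receptor, at -1.14 ± 0.63. Timd4 had too few control counts for a fold and did not pass either.

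Receptors of the complement peptides rose alongside. Across the 22 complement genes 14 were higher and none lower (median 3.06). C3ar1, the receptor for C3a, read 4.75, 2.73 and 7.1 CPM in the controls and 793, 796 and 762 CPM at day 28 (7.33 ± 0.35, adjusted p = 2.88e-11). C5ar1, the receptor for C5a, read 18.6, 26.5 and 22.8 and 711, 1230.2 and 1026 CPM (5.45 ± 0.28, adjusted p = 3.42e-11). Both were tight within each group and far apart between them. Cfp, properdin, which stabilises the alternative pathway convertase, rose by 2.35 ± 0.21 (adjusted p = 7.8e-08), whereas C3 itself did not pass at -0.52 ± 0.42 (adjusted p = 0.416). The list also held C1s1, Serping1 and C4b, which fibroblasts make as well and which rose beside the fibroblast sums. Of the 10 genes tested in the Fc receptor list 5 were higher. Among them was Fcgr2b, the inhibitory receptor for IgG, at 261, 345 and 297 CPM in the controls and 1474, 1472 and 1959 CPM at day 28 (2.44 ± 0.27, adjusted p = 1.64e-06). Fcgr4 rose by 3.13 ± 0.43 (adjusted p = 1.98e-05) and Fcgr1, the high-affinity receptor, by 2.62 ± 0.36 (adjusted p = 2.29e-05). The 2 lower members, Syk and Pirb, are not Fc receptors themselves. The lower count became 0 without control A or control C and 1 without day 28 A or C.

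Genes for sensing and uptake gave mixed counts. In the pattern recognition list 11 of 25 were higher and 3 lower, the latter being Nod1, Tlr7 and Aim2. Apart from Cd14, the most secure rises were C-type lectins that activate myeloid cells through Syk. Clec4n (dectin-2) rose from 13.6, 19.1 and 16.5 to 1861, 2007 and 1846 CPM (6.86 ± 0.42, adjusted p = 4.83e-10), Clec4d rose by 6.63 ± 0.47 (adjusted p = 3.14e-09) and Clec4e (mincle) by 4.43 ± 0.36 (adjusted p = 1.73e-08). Trem1, which amplifies inflammatory signals, rose from 2.4, 2.55 and 7.83 to 135, 491 and 462 CPM (6.41 ± 0.66, adjusted p = 6.28e-07). For clearing dying cells, 11 of the 24 genes tested were higher and 1, Cd300lb, lower (0 without control A, control C, day 28 A or day 28 C). Mertk, the receptor kinase for cells coated by Gas6 or protein S, rose from 0.567, 0.584 and 0 to 32.1, 38.6 and 39.2 CPM (6.56 ± 0.67, adjusted p = 6.11e-07). Its relative Axl did not pass at 1.04 ± 0.52 (adjusted p = 0.17).

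Antigen presentation genes were higher in 9 of 16 cases and lower in none (median 1.20). Costimulatory Cd86 rose from 41.3, 68.7 and 37.9 to 395, 409 and 523 CPM (3.17 ± 0.31, adjusted p = 2.76e-07) and Cd80 by 2.60 ± 0.31 (adjusted p = 3.5e-06). The class II chains H2-Aa, H2-Ab1 and H2-Eb1 rose by 2.16 ± 0.45 (adjusted p = 0.00194), 2.23 ± 0.48 (adjusted p = 0.00215) and 2.51 ± 0.44 (adjusted p = 0.000316). H2-Ab1 read 2407, 1602 and 1156 CPM in the controls and 11980.0, 5495 and 6774 CPM at day 28, library A being the highest. Ciita, the transactivator of class II genes, did not pass at -0.68 ± 0.48 (adjusted p = 0.34). The called dendritic cell markers above were lower.

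**Figure D3:**
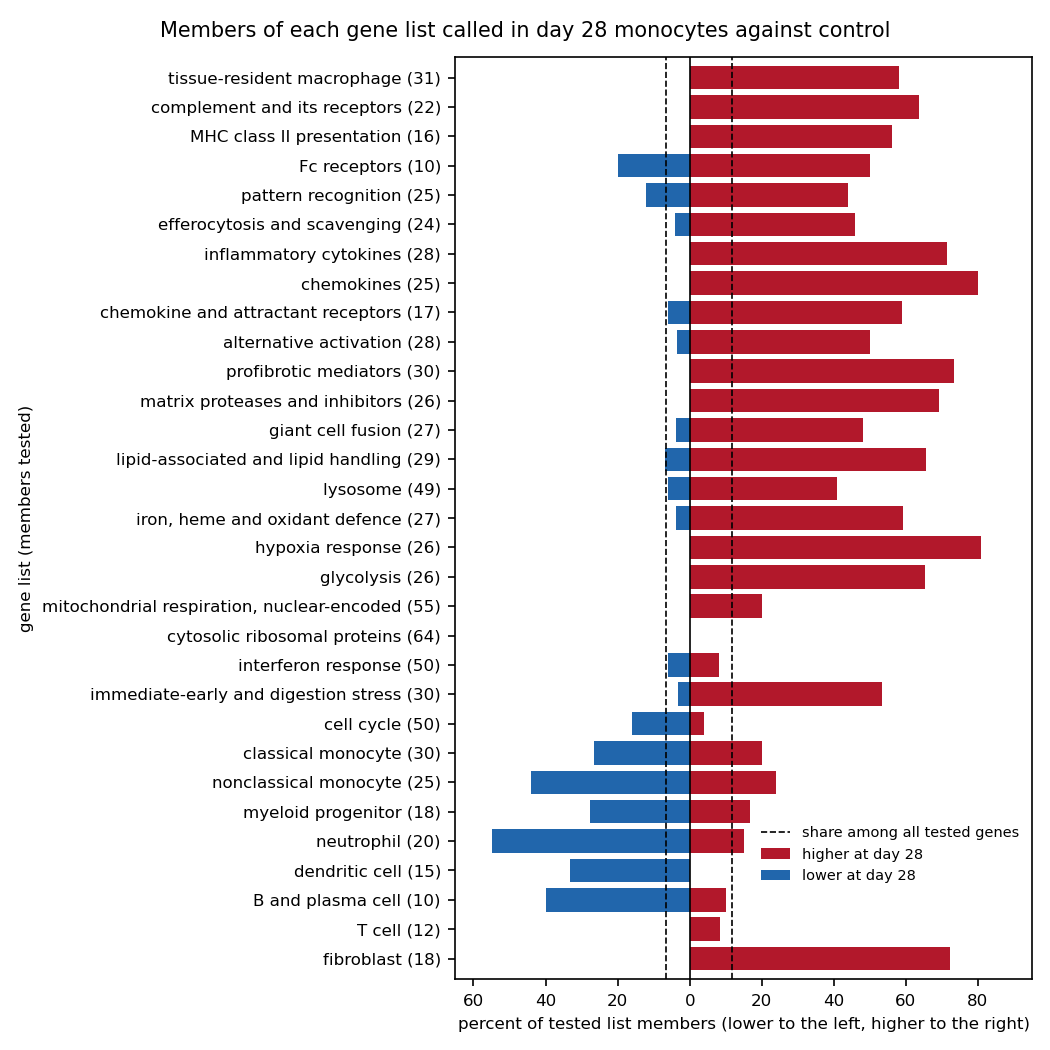
Percent of the tested members of each gene list that were higher (red, to the right) or lower (blue, to the left) at day 28 than in the controls; the number tested is in brackets and dashed lines mark the shares among all tested genes, 11.7% and 6.52%. Hypoxia, chemokine and profibrotic lists reach furthest right, the neutrophil list furthest left, and ribosomal protein genes have no bar.

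Inflammatory mediators were mostly higher. Of 28 cytokine and related genes 20 were higher and none lower (median log2 fold change 4.35, or 4.22 with genes absent from a group held at their bound). Il1b, interleukin 1 beta, read 113, 96.2 and 112 CPM in the controls and 5205, 3432 and 4979 CPM at day 28 (5.41 ± 0.52, adjusted p = 2.68e-07). Its natural antagonist Il1rn rose from 23, 37.8 and 39.8 to 2076, 2276 and 2024 CPM (5.99 ± 0.40, adjusted p = 1.73e-09), and the decoy receptor Il1r2 from 4.34, 5.65 and 2.08 to 212, 225 and 274 CPM (5.88 ± 0.56, adjusted p = 2.55e-07). Oncostatin M, Osm, an interleukin 6 family cytokine, rose from 28.1, 21.3 and 36.7 to 881, 1290.3 and 1750.0 CPM (5.51 ± 0.33, adjusted p = 3.63e-10). Ptgs2, the inducible cyclooxygenase of prostaglandin synthesis, rose from 4.51, 1.62 and 5.92 to 327, 942 and 979 CPM (7.54 ± 0.68, adjusted p = 1.16e-07). Tnfsf9, the ligand 4-1BBL, rose by 4.86 ± 0.38 (adjusted p = 1.44e-08). Among the 8 that did not pass were Il15 at -0.32 ± 0.47, Il27 at -1.04 ± 0.93 and the inflammasome sensor Nlrp3 at 1.25 ± 0.47.

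Chemokine genes were higher in 20 of 25 cases and lower in none. Their median log2 fold change was 6.23, or 5.47 with absent genes at their bound. Ligands that draw neutrophils through Cxcr2 were among them. Cxcl2 rose from 6.63, 9.77 and 12.6 to 920.4, 642 and 985 CPM (6.45 ± 0.45, adjusted p = 3.02e-09) and Cxcl3 from 0.262, 0.292 and 0.426 to 126, 235 and 572 CPM (9.87 ± 0.89, adjusted p = 1.11e-07). Ccl7, which draws monocytes through Ccr2, rose from 0.196, 0.345 and 0.0473 to 227, 103 and 112 CPM (9.54 ± 0.77, adjusted p = 1.91e-08). Ccl24, an eotaxin that acts on eosinophils, rose from 0.414, 1.14 and 1.16 to 193, 154 and 241 CPM (7.76 ± 0.75, adjusted p = 2.76e-07), and Pf4, platelet factor 4, from 0.218, 0.664 and 0.379 to 191, 144 and 195 CPM (8.72 ± 0.68, adjusted p = 1.12e-08). Cxcl16, a membrane-bound ligand and scavenger receptor, rose from 19.1, 23.9 and 24.1 to 967, 658 and 470.4 CPM (4.96 ± 0.36, adjusted p = 5.39e-09).

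Of 17 receptors for chemokines and other attractants 10 were higher and 1, Cx3cr1, lower. Besides C3ar1 and C5ar1, Ccr1, a receptor for Ccl3 and other chemokines, rose from 29.5, 20.1 and 33.2 to 542, 904 and 1207 CPM (5.0 ± 0.37, adjusted p = 7.29e-09). Ccrl2, which presents chemerin, rose by 3.69 ± 0.32 (adjusted p = 7.02e-08) and Fpr1, a receptor for formyl peptides, from 0.85, 4.25 and 2.11 to 36.2, 86.8 and 32.3 CPM (4.43 ± 0.61, adjusted p = 2.05e-05).

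**Figure D4:**
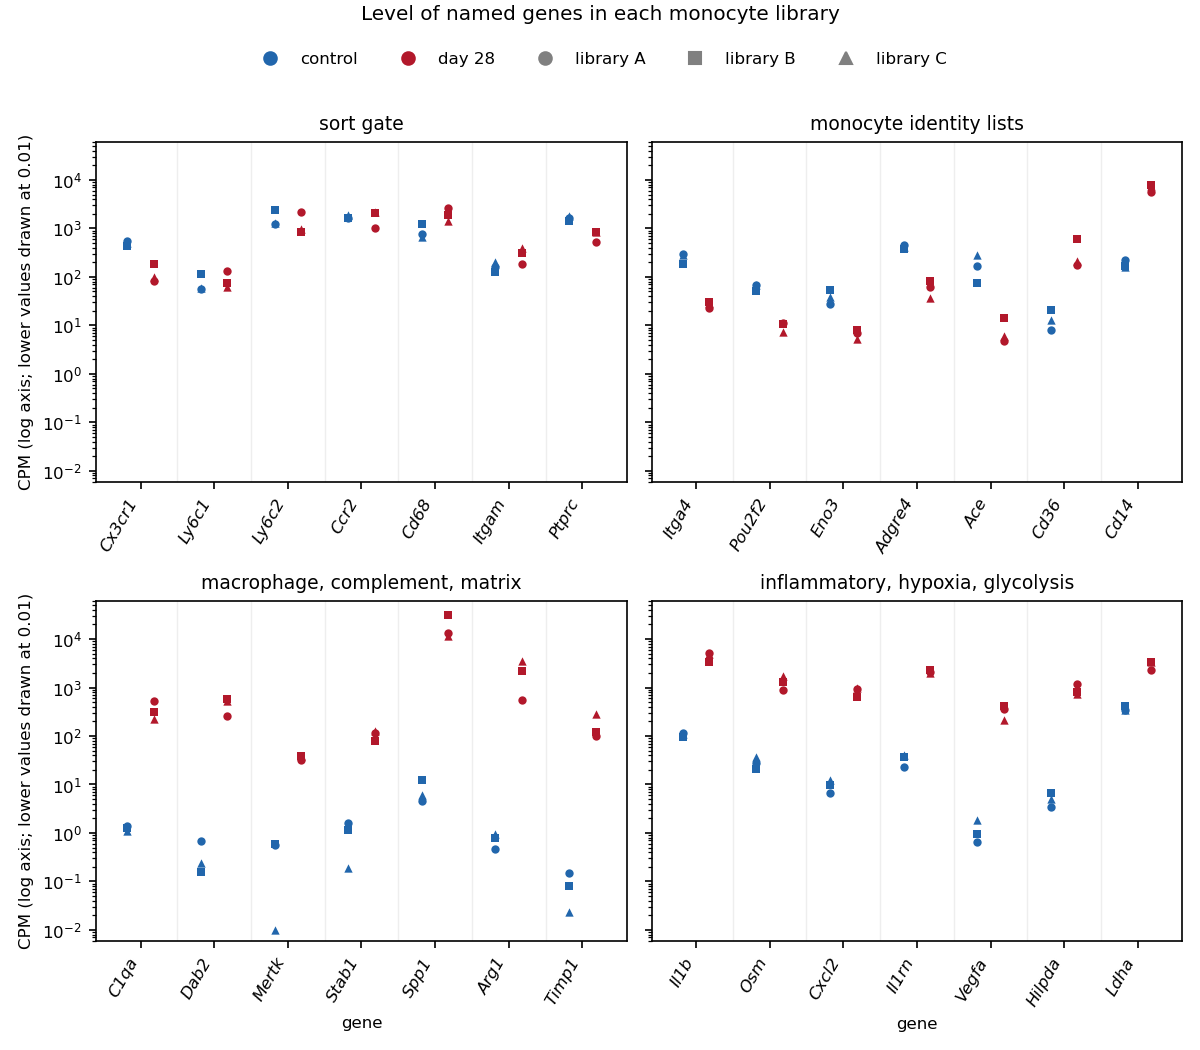
CPM (log axis) of 28 genes in each control (blue) and day 28 (red) monocyte library; circles, squares and triangles are libraries A, B and C. The groups overlap for Ly6c1, Ly6c2, Ccr2 and Itgam, and part completely for the macrophage, matrix, inflammatory and hypoxia genes shown.

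Genes of alternative activation, the state that interleukins 4 and 13 induce in mouse macrophages, were higher in 14 of 28 cases and lower in 1. Arg1, arginase, which turns arginine into ornithine, stayed under 1 CPM in each control (0.458, 0.796 and 0.947) and read 552, 2204 and 3489.6 CPM at day 28 (11.46 ± 0.80, adjusted p = 3.02e-09). Day 28 library A was the lowest of its group for Arg1 and also for Tgm2, a transglutaminase that crosslinks matrix, which read 8.92, 5.36 and 8.54 CPM in the controls and 253, 589 and 1440.4 CPM at day 28 (6.64 ± 0.70, adjusted p = 7.63e-07). The scavenger receptor Msr1 rose by 2.14 ± 0.23 (adjusted p = 9.34e-07) and the inhibitory receptor Cd200r1 by 2.78 ± 0.30 (adjusted p = 1.13e-06). Irf4, a transcription factor of this state and of dendritic cells, was the lower member, falling from 51.6, 25.6 and 33.8 to 2.25, 0.976 and 1.82 CPM (-4.46 ± 0.53, adjusted p = 3.5e-06). Chil3, a chitinase-like protein often used as a mark of this state, did not pass at -0.28 ± 0.61, and nor did Retnla at 2.35 ± 0.93.

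Mediators of fibrosis and repair were higher in 22 of 30 cases and lower in none (median 5.09, or 4.92 with absent genes at their bound). Spp1 (chr5:104435118-104441050), osteopontin, a secreted adhesion protein made by scar-associated macrophages, read 4.49, 12.6 and 5.94 CPM in the controls and 13376, 31295 and 11468 CPM at day 28 (11.25 ± 0.85, adjusted p = 7.75e-09). Library B was the highest of the day 28 group and all 3 were far above the controls. Vegfa, the growth factor for vessels, rose from 0.654, 0.929 and 1.87 to 360.3, 423 and 213 CPM (8.17 ± 0.78, adjusted p = 2.4e-07). Timp1, an inhibitor of matrix metalloproteinases, rose from 0.153, 0.0796 and 0.0237 to 98.3, 121 and 287 CPM (10.84 ± 0.71, adjusted p = 1.28e-09). Plaur, the receptor that holds urokinase at the cell surface, rose from 287, 395 and 248 to 1193, 1013 and 1146 CPM (1.85 ± 0.21, adjusted p = 1.64e-06). Tgfb1, the central profibrotic growth factor, did not pass at -0.34 ± 0.58 (adjusted p = 0.74), nor did fibronectin, Fn1, at -0.26 ± 0.55 (adjusted p = 0.794). The fibroblast sums above moved with this list and with the next one.

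Matrix proteases and their inhibitors were higher in 18 of 26 cases and lower in none (median 4.24, or 3.74 with absent genes at their bound). Lysosomal cathepsin L, Ctsl, rose from 21.8, 36 and 29.8 to 925, 1552 and 865 CPM (5.25 ± 0.35, adjusted p = 1.75e-09). Legumain, Lgmn, which processes cathepsins, rose from 95.3, 80.5 and 124 to 1171, 910.0 and 842 CPM (3.28 ± 0.27, adjusted p = 2.57e-08). Mmp19 rose by 4.35 ± 0.40 (adjusted p = 1.24e-07), and Adam8, a membrane sheddase of leukocytes, from 41.4, 15.7 and 10.2 to 299.5, 1216 and 1101 CPM (5.28 ± 0.58, adjusted p = 1.18e-06), with day 28 A under B and C. Ctsk, the collagen-cutting cathepsin of osteoclasts and fibroblasts, rose from 0.283, 0.265 and 0.071 to 99.6, 85.9 and 12.7 CPM (8.29 ± 1.04, adjusted p = 7.63e-06).

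Genes linked to macrophage fusion were higher in 13 of the 27 tested and lower in 1, Dock1. Cd9, a tetraspanin that restrains fusion in mice, rose from 19.8, 28.7 and 11.8 to 1166, 1539.5 and 1231 CPM (6.03 ± 0.51, adjusted p = 3.58e-08). Cd63, a tetraspanin of lysosomes, rose from 10.4, 12.7 and 7.83 to 869.8, 388 and 203 CPM (5.56 ± 0.63, adjusted p = 1.92e-06), and Acp5, the acid phosphatase of osteoclasts, from 11.9, 30.6 and 19.3 to 310.3, 174 and 130.3 CPM (3.31 ± 0.40, adjusted p = 4.88e-06). Within day 28 both were highest in library A and lowest in library C, as the C1q chains were. Dcstamp, which fusion of osteoclasts and giant cells requires, read 0.436, 0 and 0 CPM in the controls and 8.2, 31.1 and 6.54 CPM at day 28 (6.60 ± 1.02, adjusted p = 8.36e-05). Its partner Ocstamp did not pass at 2.04 ± 0.81 (adjusted p = 0.0851). The lower count was 2 without control B or day 28 B.

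Lipid handling genes were higher in 19 of 29 cases and lower in 2, among them Scarb1, which takes up lipid from lipoproteins. The lower count was 1 without control A, control C, day 28 A or day 28 B. Plin2, a coat protein of lipid droplets, rose from 312, 301 and 322 to 2271, 1573 and 1091 CPM (2.4 ± 0.23, adjusted p = 2.79e-07). Abca1, the cholesterol exporter, rose from 5.41, 3.82 and 6.58 to 203, 249 and 466 CPM (5.86 ± 0.53, adjusted p = 1.19e-07), and Olr1, the receptor for oxidised LDL, by 3.64 ± 0.33 (adjusted p = 1.21e-07). Lpl, lipoprotein lipase, did not pass at 0.39 ± 0.69 (adjusted p = 0.743). Among 49 lysosomal genes 20 were higher and 3 lower, among them Sgsh and Tfeb, with a median of 0.55. Cathepsin D, Ctsd, rose from 231, 241 and 292 to 2557, 3311 and 1757 CPM (3.32 ± 0.26, adjusted p = 1.28e-08) and the galactosidase Gla by 3.65 ± 0.25 (adjusted p = 1.75e-09). The proton pump subunits Atp6v0c and Atp6v1d rose by 1.60 ± 0.20 (adjusted p = 6.27e-06) and 1.38 ± 0.20 (adjusted p = 4.45e-05), while Lamp1 and Lamp2, membrane proteins of the lysosome, did not pass.

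Iron, heme and oxidant defence genes were higher in 16 of 27 cases and lower in 1, the glutathione reductase Gsr, which became 0 without control C, day 28 A or day 28 C. Slc7a11, the cystine importer that feeds glutathione synthesis, rose from 5.32, 5.31 and 3.69 to 237, 295 and 343 CPM (5.93 ± 0.45, adjusted p = 7.29e-09). Srxn1, sulfiredoxin, rose from 9.63, 5.52 and 6.82 to 167, 259 and 134 CPM (4.67 ± 0.49, adjusted p = 7.71e-07). The metal-binding metallothionein Mt1 rose from 4.53, 5.65 and 3.81 to 222, 117 and 95.6 CPM (4.96 ± 0.53, adjusted p = 9.4e-07). Its relative Mt2 had 1 count in the controls and 11.1, 12.1 and 3.29 CPM at day 28, a ratio of 1101-fold (95% counting interval 197 to 43556). Slc40a1, the iron exporter ferroportin, did not pass at 0.70 ± 0.59.

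Genes of the response to low oxygen had the highest share called of the lists with over 10 members tested, at 80.8%. The chemokine list was nearly level at 80%, and the lists were chosen with earlier results of these data known. The factor Hif1a is stabilised when oxygen falls and binds DNA at sites with the core ACGTG. The promoters of 4 of the genes below that hold this core are printed to show where it lies. Each is the 250 bases before a listed start of the gene, 5′ to 3′ on the gene's strand, from RefSeq (GRCm38.p6). Each ACGTG or its reverse complement CACGT is in capitals. Hilpda had 2 listed promoters, of which the one with the most matches is printed and the other held none.
Ankrd37, chr8:45999851-46000100, minus strand: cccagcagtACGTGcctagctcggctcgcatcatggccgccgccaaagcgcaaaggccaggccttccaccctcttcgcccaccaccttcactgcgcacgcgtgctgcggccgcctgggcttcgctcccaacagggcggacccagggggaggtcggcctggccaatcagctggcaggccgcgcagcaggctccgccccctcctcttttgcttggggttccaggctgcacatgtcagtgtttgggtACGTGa
Bnip3, chr7:138909507-138909756, minus strand: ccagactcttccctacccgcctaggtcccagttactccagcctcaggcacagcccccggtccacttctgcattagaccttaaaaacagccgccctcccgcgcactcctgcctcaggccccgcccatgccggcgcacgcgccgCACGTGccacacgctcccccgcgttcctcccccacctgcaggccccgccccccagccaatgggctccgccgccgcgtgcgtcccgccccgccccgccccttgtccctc
Hilpda, chr6:29272376-29272625, plus strand: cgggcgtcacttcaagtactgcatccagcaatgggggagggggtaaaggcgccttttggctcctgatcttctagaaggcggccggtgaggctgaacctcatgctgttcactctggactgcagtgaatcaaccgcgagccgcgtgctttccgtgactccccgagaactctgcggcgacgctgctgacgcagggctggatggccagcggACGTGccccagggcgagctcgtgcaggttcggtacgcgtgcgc
Slc2a1, chr4:119108495-119108744, plus strand: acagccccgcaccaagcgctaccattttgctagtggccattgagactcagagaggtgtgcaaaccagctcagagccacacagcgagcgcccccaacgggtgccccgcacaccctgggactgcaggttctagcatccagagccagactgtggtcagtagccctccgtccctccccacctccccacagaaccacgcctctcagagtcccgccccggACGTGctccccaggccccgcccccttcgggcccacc

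Bnip3 holds the 2 orientations overlapping as the palindrome CACGTG. Of the 26 hypoxia genes tested 22 had a promoter in the RefSeq table, and 19 of them held the core in the window from 250 bases before to 50 after a start. Counted by promoter, 20 of 32 (62.5%) held it, against 19.6% of all 32851 promoters in the table. A match is a description of the letters and not a bound site. The count takes in list members whether called or not, so it describes the list and not the change at day 28.

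Of the 26 hypoxia response genes 21 were higher and none lower at day 28 (median log2 fold change 3.10). Hilpda, which coats lipid droplets and slows their breakdown, read 3.36, 6.8 and 5.04 CPM in the controls and 1168, 824 and 732 CPM at day 28 (7.49 ± 0.50, adjusted p = 1.63e-09). Ankrd37, an ankyrin repeat protein, read 1.22, 2.28 and 1.04 and 77.4, 63.6 and 44.9 CPM (5.35 ± 0.42, adjusted p = 1.44e-08). Within day 28 library A was the highest and C the lowest for both. Bnip3, which marks mitochondria for removal, rose from 18.2, 25.4 and 17.1 to 269.8, 354 and 376 CPM (4.04 ± 0.38, adjusted p = 1.86e-07). Slc2a1, the glucose transporter Glut1, rose from 17.9, 24.7 and 35.3 to 287, 673 and 607 CPM (4.33 ± 0.36, adjusted p = 3.13e-08). Bhlhe40, a transcriptional repressor, rose from 27.9, 14.4 and 14.7 to 338, 681 and 614 CPM (4.84 ± 0.37, adjusted p = 8.01e-09). The 5 that did not pass were Bnip3l, Ndrg1, Car9, Kdm3a and Cited2, which are also targets of the factor in other cells.

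Glycolysis genes were higher in 17 of 26 cases and lower in none (median 2.22). Tpi1, triose phosphate isomerase, rose from 112, 162 and 123 to 1279, 1568 and 1544 CPM (3.47 ± 0.26, adjusted p = 7.32e-09). Ldha, which makes lactate, rose from 345, 417 and 338 to 2252, 3318 and 3304 CPM (3.01 ± 0.24, adjusted p = 1.44e-08), and Aldoa, an aldolase, by 2.47 ± 0.25 (adjusted p = 4.56e-07). Gapdh and Pgk1 rose by 2.61 ± 0.26 (adjusted p = 4.01e-07) and 2.92 ± 0.32 (adjusted p = 1.13e-06), but both have many processed copies in the mouse genome, so their levels are uncertain. The hexokinases Hk1, Hk2 and Hk3 did not pass, at 0.77 ± 0.45, 0.95 ± 0.33 and -0.47 ± 0.42.

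None of the 64 cytosolic ribosomal protein genes was called by edgeR, DESeq2 or limma voom, nor had an unadjusted p under 0.05 in edgeR (median 0.27). Nuclear-encoded respiratory chain genes were higher in 11 of 55 cases and lower in none (median 0.74), a count that 1 library could move widely. It was 2 without control C, 3 without control A or day 28 A, 6 without day 28 C and 23 without control B. DESeq2 called 19, limma voom 23, and edgeR 19 with no filter and 6 with the replicate letter as a block. Sdhd, an anchor of succinate dehydrogenase, rose by 0.83 ± 0.19 (adjusted p = 0.0043). The median exon length of this list was 1801 bases, beside 1795 for the chemokine list and 1923.5 for the ribosomal protein list. The part of length in these counts was not tested.

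Interferon-stimulated genes were called in shares not above those of all genes. Of 50, 4 were higher (8%) and 3 lower (6%), against 11.7% and 6.52% of all genes tested. The median log2 fold change of the list was 0.01. Limma voom called 7 and 5, and edgeR with no filter 8 and 7. Isg15, a ubiquitin-like modifier, read 64.7, 68.8 and 56.5 CPM in the controls and 612, 179.8 and 294 CPM at day 28 (2.51 ± 0.64, adjusted p = 0.00904). Rsad2, viperin, read 87.6, 66 and 68.5 and 527, 191 and 295 CPM (2.19 ± 0.64, adjusted p = 0.0202). Day 28 library A was the highest for both, and without it none of the 4 passed, with adjusted p = 0.0536 for Isg15 and 0.0871 for Rsad2. The higher count was 2 without control A and 1 without control C. Irgm2, an interferon-induced GTPase, fell from 112, 70.5 and 77.5 to 28.3, 26.9 and 19.4 CPM (-1.80 ± 0.39, adjusted p = 0.00242). The lower count was 1 without control A, day 28 B or day 28 C. The core of the interferon-stimulated response element is a pair of GAAA runs with 2 bases between them. It was on either strand of 25 of the 47 promoters found for the list (53.2%), against 3.44% of all promoters. These promoters are those of list members whether called or not, so the share describes the list and not day 28.

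Cell cycle genes leaned lower. Of 50, 8 were lower and 2 higher (median -1.20). Limma voom called 13 lower, and edgeR with no filter 14. Aurkb, a kinase of chromosome segregation, fell from 15.1, 16.6 and 12.5 to 3.82, 3.37 and 6.84 CPM (-1.66 ± 0.49, adjusted p = 0.0225), and Mki67, the proliferation antigen, from 8.87, 3.85 and 17.2 to 1.85, 0.39 and 0 CPM (-3.75 ± 1.00, adjusted p = 0.0117). Mki67 did not pass without control C (adjusted p = 0.0584) or day 28 B (adjusted p = 0.0535). Cenpa, the histone of centromeres, and Gins2, of the replication helicase, were the 2 higher members, at 2.07 ± 0.40 (adjusted p = 0.000825) and 2.01 ± 0.42 (adjusted p = 0.00182). The lower count was 2 without day 28 C, 4 without control A or day 28 B and 5 without control B. Most levels were low, with Mki67 under 20 CPM in every library.

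Immediate-early genes, which cell stimulation switches on within minutes and which enzyme digestion of tissue can also induce, were higher in 16 of 30 cases and lower in 1, Klf2. Ier3 read 5.3, 4.67 and 7.01 CPM in the controls and 1862, 1666 and 1919.9 CPM at day 28 (8.32 ± 0.38, adjusted p = 1.51e-11). The nuclear receptor Nr4a2 rose from 2.01, 0.85 and 1.42 to 249, 195 and 157 CPM (7.12 ± 0.63, adjusted p = 7.8e-08), and the AP-1 subunits Fosl1 and Fosl2 by 6.31 ± 0.91 (adjusted p = 3.92e-05) and 2.39 ± 0.33 (adjusted p = 2.39e-05). Others of the same kind did not pass, among them Jun at -0.30 ± 0.76, Egr1 at 0.50 ± 0.59, Ier2 at -0.09 ± 0.67 and the heat shock gene Hspa1a at -1.39 ± 0.49. Whether control cells were digested for the same time is not stated, and its part in the result was not tested. The AP-1 core TGANTCA was in 2 of the 8 promoters (25%) found for the 12 largest rises, those of Ppbp and Efemp1, against 7.81% of all promoters. The NF-kB core is GGGA and TTTCC with 1 base between them. It was on either strand of 3 of 24 promoters (12.5%) of the inflammatory cytokine list, those of Csf1, Il6 and Nfkbia, against 0.411% of all. That share too covers list members whether called or not.

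Against the earlier implant monocytes the number of genes called depended on the method. The values that follow are those of edgeR's test. The comparisons with day 14 and day 2 use the same 3 day 28 libraries as the comparison with control. Against day 14 there were 96 genes higher (0.59%) and 21 lower (0.129%), which is 0.72% of those tested. DESeq2 called 861 and 693, and edgeR with no low count filter 1270 and 253. Against day 2 there were 63 higher (0.387%) and 78 lower (0.48%), or 0.867%. DESeq2 called 497 and 365, and edgeR with no filter 893 and 196. The day 14 comparison was fragile. It gave 0 genes in either direction without day 14 library A or day 28 library B, and 4 higher and 0 lower without day 14 library C. Without day 14 library B it gave 7 higher and 6 lower genes, and without day 28 library A 179 and 73. Without day 28 C it gave 62 and 3.

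Apoe, the apolipoprotein of cholesterol transport, was among the genes higher than at day 14. It read 1344, 257 and 1080.4 CPM at day 14 and 17320.0, 9946 and 5356 CPM at day 28 (log2 fold change 3.61 ± 0.79, adjusted p = 0.0478). The control libraries, at 891, 2242 and 1191 CPM, were nearer to day 14. Tmem70, an assembly factor of ATP synthase, Tsen34, of tRNA splicing, and Arhgap9, a regulator of small GTPases, were higher at day 28 than day 14 by 3.67 ± 0.64 (adjusted p = 0.0432), 3.35 ± 0.70 (adjusted p = 0.0447) and 3.16 ± 0.71 (adjusted p = 0.0485). H2afx, a histone of DNA damage signalling, was higher by 3.44 ± 0.80 (adjusted p = 0.0485). Tsen34, Arhgap9 and H2afx had means of 36.5, 306 and 15.8 CPM in the controls and 3.35, 20.1 and 1.05 CPM at day 14. Their day 28 means were 34.1, 180 and 11.6 CPM, and none of them passed the test against control. Tmem70 read 22.9, 43.8 and 21.7 CPM in the controls, 3.32, 1.4 and 1.68 CPM at day 14 and 30.6, 29.4 and 20.9 CPM at day 28, so that its day 28 and control ranges overlapped. Lower than at day 14 were Cd24a, a surface mucin, S100a11, a calcium-binding protein, Dusp10, a MAP kinase phosphatase, Ifitm6, an interferon-induced membrane protein, and the noncoding gene Dubr. S100a11 read 2648, 1009 and 2870.4 CPM at day 14 and 605, 553 and 669 CPM at day 28 (-1.84 ± 0.42, adjusted p = 0.0485). Each of the genes named here lost its call without day 14 library A or C and without day 28 library B.

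Among the genes lower than at day 2 were neutrophil genes. Of the 20 neutrophil markers 8 were lower at day 28 than at day 2 and none higher. Retnlg, a resistin-like protein, read 317, 85.9 and 219.7 CPM at day 2 and 4.16, 2.73 and 5.16 CPM at day 28 (-5.69 ± 0.85, adjusted p = 0.00482). Lcn2, which binds bacterial siderophores, read 199, 152 and 150.0 and 4.05, 6.98 and 10.4 CPM (-4.54 ± 0.75, adjusted p = 0.0061), and the gelatinase Mmp9 126, 46.1 and 119 and 3.03, 5.95 and 3.84 CPM (-4.50 ± 0.90, adjusted p = 0.0208). The neutrophil sum was 2773 to 6017 CPM at day 2. Wfdc21 and Gpld1 were the others of the 5 largest falls. Higher than at day 2 were Cd248, a stromal membrane protein, Cxcl14, Gdf15, a stress-induced cytokine, Plpp3, a lipid phosphatase, and Pxdc1. Cxcl14 read 0.315, 0.389 and 0.0955 CPM at day 2 and 11, 31.2 and 5.16 CPM at day 28 (5.90 ± 1.23, adjusted p = 0.0264), while Gdf15 ranged from 1.97 to 48.4 CPM within day 28. The 5 rises lost their calls without day 2 library A or B, as the 5 falls did in part. The counts without 1 library ran from 15 to 69 higher and from 28 to 50 lower.

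**Figure D5:**
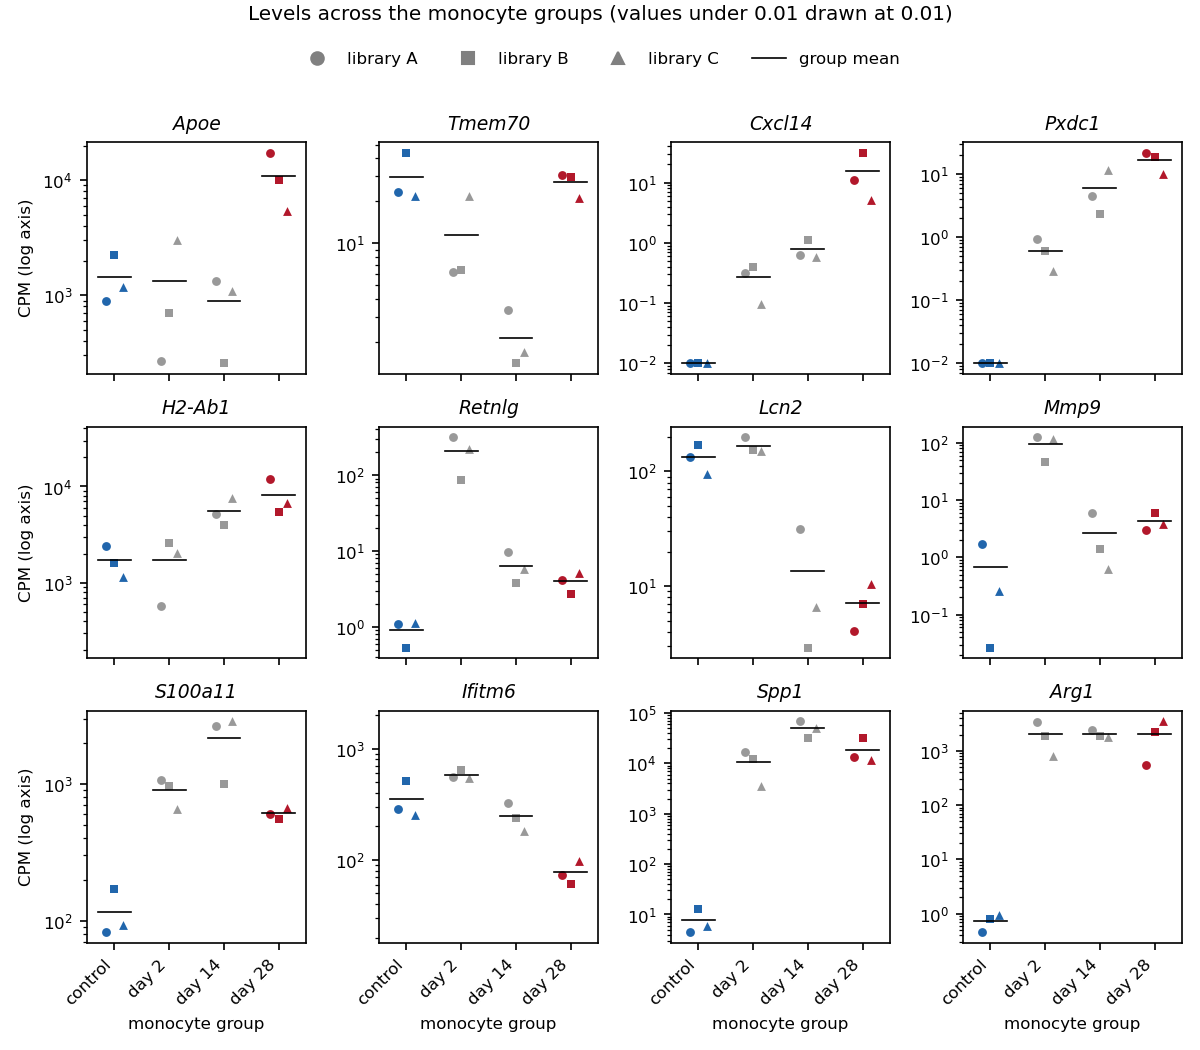
CPM (log axis) of 12 genes in each monocyte library of the control, day 2, day 14 and day 28 groups; symbols are libraries A to C and the bar is the group mean. Apoe and Tmem70 are higher at day 28 than at day 14, Retnlg, Lcn2 and Mmp9 lower than at day 2, and Spp1 and Arg1 are far above the controls at each implant time.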

How the data were processed

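Per the submitters' processing notes, reads were mapped to GRCm38 by STAR 2.4.1d, and featureCounts (Subread 1.5.1) counted them per gene. Its annotation release and strand setting were not given in the sources used here. Per the labels, RNA was amplified with SMART-Seq v4, fragmented with Nextera XT and read as single 75-base reads. The authors deposited raw counts for 47729 gene entries, of which 419 had no symbol (0.095% of counts). Those entries stayed in the fit and were left out only from the genes named. Totals over the 23 libraries ran from 9303153 to 32994092 counts.

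From the deposited counts, edgeR 4.0.16 (R 4.3.3) fitted 8 groups of all 23 libraries together after filterByExpr and TMM scaling, with robust dispersions and a prior count of 0.125. The quasi-likelihood test was adjusted by Benjamini-Hochberg over 16260 genes at 0.05. Scripts were tested on simulated data. Alternatives were DESeq2 1.42.0, its size factors, limma 3.58.1 voom, no filter, thinned counts, a prior count of 2, only the groups compared, the replicate letter as a block, and leaving out each library. Members and lists were chosen with earlier results of these data known. Named were the 12 largest rises and falls whose higher group averaged 10 CPM or more and whose groups did not overlap, up to 6 called members per list with the smallest adjusted p, and the 5 largest each way between times. Members lower than the rest of their list and members that did not pass were chosen after their values were seen. Counting intervals (95%) and the floor of 3 counts cover counting error only. Some members counted in the lists are not reported by name here. Lists share some members, and a shared gene is counted in each.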

Additional observations from a re-analysis of the deposited data

Results flagged for a closer look

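The following genes of the day 28 comparison differed between implant times by edgeR's quasi-likelihood test of the difference itself, which is the difference between the effects against control at those times. Relative to day 2, the day 28 level was higher by 5.90 (log2) for Cxcl14, 4.80 for Pxdc1, 3.44 for the microfibril gene Mfap5, 2.92 for Cxcl16, 2.21 for H2-Ab1, 2.04 for Il7r, 1.97 for H2-Eb1, 1.90 for Abca1 and 1.80 for Acp5. It was lower for Ngp (-5.12) and Lcn2 (-4.54). Relative to day 14 it was lower for Plaur (-1.0). Adjusted p were 0.0264 for Cxcl14, 0.0264 for Pxdc1, 0.0178 for Mfap5, 0.000347 for Cxcl16, 0.0264 for H2-Ab1, 0.0484 for Il7r, 0.029 for H2-Eb1, 0.0464 for Abca1, 0.0252 for Acp5, 0.0171 for Ngp, 0.0061 for Lcn2 and 0.0447 for Plaur. Of these, Cxcl16 and Lcn2 kept the call in every alternative run. H2-Ab1 read 578, 2607 and 2039.9 CPM at day 2 and 11980.0, 5495 and 6774 CPM at day 28. These ranges did not overlap, and nor did those of 3134 of all 16260 genes tested in that comparison. Cxcl16 read 79.5, 91.2 and 106 and 967, 658 and 470.4 CPM. Groups of 3 libraries were not tested for single outlying values.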

How the results depend on the processing

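Of the 172 named genes called at day 28 against control, 147 kept the call and direction without each of the 6 libraries in turn. In every alternative run 145 did, and none reversed. The prior count of 2 alters the fold changes and not the p-values, so it could not change a call. The counts of 1905 higher and 1060 lower genes stayed within 1.5 times of these values under DESeq2 (2500 and 1489), its size factors in edgeR, no filter, thinned counts and only the groups compared (1281 and 918). With limma voom 1896 were lower. Without 1 library the higher count ran from 1325 to 1837 and the lower from 607 to 1072, with 615 without control A, 607 without control C and 697 without day 28 C. The replicate letter as a block gave 1706 and 918. Letters did not pair the libraries (same-letter correlations of deviations -0.25 for A, -0.16 for B and 0.15 for C).

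The time comparisons depended on the settings, and the cause was not tested. Against day 14 (96 higher, 21 lower), the higher count was 861 with DESeq2, 1270 with no filter, 219 with only the groups compared, 182 with thinned counts and 2 with the replicate block. The lower count was 693, 253, 11, 50 and 0 in that order, 35 with DESeq2 size factors and 116 with limma voom. Without 1 library these counts ran from 0 to 179 and from 0 to 73. Against day 2 (63 higher, 78 lower), the higher count was 497 with DESeq2, 378 with limma voom, 893 with no filter, 6 with only the groups compared and 103 with thinned counts, and the lower count 365, 254, 196 and 12 with the first 4 of these. Without 1 library they ran from 15 to 69 and from 28 to 50, and the replicate block gave 49 and 53. Leaving out the filter shifted the median log2 change against day 14 by 0.12.

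Day 28 libraries were shallower than controls, so low genes at day 28 rest on fewer counts.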
